A study of Mus musculus with 4 samples.

Results

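The genes described here are 9 genes of the transforming growth factor beta (TGF-beta) system: the ligands Tgfb1, Tgfb2 and Tgfb3, the receptors Tgfbr1, Tgfbr2 and Tgfbr3, the latent TGF-beta binding proteins Ltbp1 and Ltbp2, and Tgfbi, a TGF-beta induced matrix protein. They were chosen by name and not by their values, as the non-control spots on each array that carried one of these symbols. Earlier results of these data were known when they were chosen. The 9 genes comprised 12 probes and 30 spots of the 39429 probes and 43020 spots on an array, or 9 of 31708 genes. RNA from mouse embryonic fibroblasts (MEFs), connective tissue cells grown from embryos, was hybridized to 4 Agilent mouse arrays in a single color, 1 for each condition. The conditions were p53+/+ (wild-type, WT) MEFs without and with doxorubicin, and p53-/- MEFs without and with doxorubicin. Doxorubicin is a topoisomerase poison that damages DNA, and p53 is the transcription factor that responds to such damage. The dose and the treatment time of the array samples, the allele behind the p53-/- genotype and the number of embryos behind each culture are not given in the sources used here. The study used these arrays to look for a p53 target that regulates myosin. All 4 arrays were on 1 slide, so that the place on the slide and the condition cannot be told apart.

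With 1 array for each condition, no difference has a replicate check and no p-value was calculated. Signals are the processed intensities of the files. A log2 ratio was taken after each array was set to its own 75th percentile, which lay at signals of 2074 in untreated WT, 1819 in doxorubicin-treated WT, 1881 in untreated p53-/- and 2421 in doxorubicin-treated p53-/- MEFs. A gene counts as changed here when it was at least 2-fold apart, and as measured when Feature Extraction, the program that read the spots, placed its probe well above background on each array compared. The only error at hand is that between repeat spots of the same probe on an array, which had an SD of 0.08 in log2 signal over 245 probes, or 0.11 for a log2 ratio and 0.15 for a difference of log2 ratios. This spread covers neither cultures nor labeling reactions. The brightest of 153 negative control spots reached signals of 77.5 to 250.1, and 56.9% to 62.9% of the probes were well above background. Trp53, which encodes p53, had signals of 1228 and 3442 in WT MEFs without and with doxorubicin and of 442 and 543 in p53-/- MEFs. It was not examined whether this probe falls within the altered sequence. Mdm2, a p53 target that in turn restrains p53, had signals of 52283 and 183079 in WT MEFs and of 13656 and 24286 in p53-/- MEFs.

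TGF-beta is secreted as a latent dimer that is held in the matrix by the latent TGF-beta binding proteins, and it has to be released before it can signal. The active ligand binds the type II receptor Tgfbr2, which recruits and phosphorylates the type I receptor Tgfbr1, and this kinase passes the signal to SMAD proteins. Tgfbr3, or betaglycan, is a co-receptor that presents the ligand, above all the product of Tgfb2. In fibroblasts the pathway is known for matrix production, contractile genes and growth arrest.

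The array reads each gene with probes of 60 bases, and 3 of them are shown, those of a pair of ligands because they lie in related coding sequence, and a second Tgfbr2 probe because it gave other ratios than the first. The probes for Tgfb1 (mm9 chr7:26489877-26489936, plus strand) and Tgfb2 (mm9 chr1:188449333-188449392, minus strand) lie in the coding sequence of the mature ligand, where the family members resemble each other. Capitals mark the bases that are the same in both when they are set against each other, 28 of 41 overlapping bases or 68.3%. The 3rd sequence is the second, dimmer probe of Tgfbr2 (mm9 chr9:115999496-115999555, minus strand), where the capitals mark the stop codon.
Tgfb1: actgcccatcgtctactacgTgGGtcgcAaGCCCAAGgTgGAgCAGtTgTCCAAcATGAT
Tgfb2: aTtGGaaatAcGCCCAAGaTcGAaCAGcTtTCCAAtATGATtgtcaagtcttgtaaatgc
Tgfbr2, second probe: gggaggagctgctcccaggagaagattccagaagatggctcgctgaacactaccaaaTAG

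Promoters are shown for Tgfbr2, Ltbp2 and Tgfbi, the 3 genes with the widest range over the 4 arrays. They are the 250 bases before the annotated start, 5′ to 3′ on the gene's strand, from RefSeq on GRCm38.p6, which is another build than the mm9 of the probe positions. The table held promoters for 7 of the 9 genes, all but Tgfb3 and Tgfbr3, with 2 each for Tgfbr1 and Ltbp1. Capitals mark matches to the Sp1 GC box (GGGCGG, or CCGCCC on the other strand) and to the p53 half-site, searched by its consensus on both strands. The other motifs searched on both strands were AP-1 (TGACTCA), CRE (TGACGTCA), a SMAD palindrome (GTCTAGAC), the E-box (CACGTG) and a TATA box (TATAAA), and no marked match overlaps another.
Tgfbr2, chr9:116175364-116175613, minus strand: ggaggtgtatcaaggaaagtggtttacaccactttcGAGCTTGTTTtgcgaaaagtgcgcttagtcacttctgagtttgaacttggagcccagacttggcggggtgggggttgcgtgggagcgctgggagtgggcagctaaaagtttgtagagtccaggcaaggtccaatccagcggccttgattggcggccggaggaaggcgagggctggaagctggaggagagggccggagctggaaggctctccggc
Ltbp2, chr12:84876492-84876741, minus strand: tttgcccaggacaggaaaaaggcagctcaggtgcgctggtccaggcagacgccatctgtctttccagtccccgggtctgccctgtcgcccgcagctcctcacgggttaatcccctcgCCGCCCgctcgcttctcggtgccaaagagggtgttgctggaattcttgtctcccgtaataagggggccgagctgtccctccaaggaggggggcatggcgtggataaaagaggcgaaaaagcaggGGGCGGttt
Tgfbi, chr13:56609336-56609585, plus strand: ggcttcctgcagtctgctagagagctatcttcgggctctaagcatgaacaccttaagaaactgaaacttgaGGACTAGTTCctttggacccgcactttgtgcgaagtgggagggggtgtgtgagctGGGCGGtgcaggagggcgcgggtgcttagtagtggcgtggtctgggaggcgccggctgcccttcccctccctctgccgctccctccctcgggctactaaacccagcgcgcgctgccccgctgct

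The promoter of Tgfbr2 held 1 match to the p53 half-site, beginning 214 bases before the start, and that of Tgfbi held 1 beginning 179 bases before it. Such a match occurred in 7.13% of 32851 promoters of this length. The Sp1 GC box, a short motif of GC-rich promoters, was found 2 times in the promoter of Ltbp2 and 1 time in that of Tgfbi, and it was present in 32.7% of all promoters. Tgfb1 held it 5 times and 1 of the promoters of Tgfbr1 held it as well, so that it was present in 4 of the 9 windows. In 1 of the promoters of Ltbp1 a CRE, a motif found in 1.55% of all promoters, began 73 bases before the start. The promoter of Tgfb2 held an E-box, present in 6.02% of all promoters, and a TATA box, present in 12.4%. The letters of AP-1, present in 4.46%, and of the SMAD palindrome, present in 0.167%, were in none of the 9 windows. These matches describe the letters in the window and do not show binding.

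Doxorubicin went with lower levels of several of these genes in each genotype. In WT MEFs Tgfbi was 5.13-fold, Tgfbr3 3.43-fold and Tgfb3 1.97-fold lower with doxorubicin, while Tgfbr2 by its brighter probe and both latent binding proteins moved by 1.16-fold at most. In p53-/- MEFs Ltbp1 was 2.62-fold, Tgfb3 2.55-fold, Ltbp2 2.01-fold, Tgfbr2 1.99-fold and Tgfbr3 1.61-fold lower, and Tgfbi was at nearly the same level with and without the drug. Tgfb2 was 1.61-fold higher with doxorubicin in WT MEFs. At least 2-fold lower were 2 of the 9 genes in WT and 3 in p53-/- MEFs, and 0 were at least 2-fold higher. Of all measured genes, 10.4% in WT and 6.89% in p53-/- MEFs were at least 2-fold lower, and 11% and 9.24% were at least 2-fold higher. Already without doxorubicin, Ltbp2 and Tgfbr2 were 2.25-fold and 2.19-fold lower in p53-/- than in WT MEFs. A second, dimmer Tgfbr2 probe gave 1.23-fold lower for this comparison and 1.47-fold higher with doxorubicin in WT MEFs. All 9 genes were well above background on all 4 arrays.

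**Figure D1:**
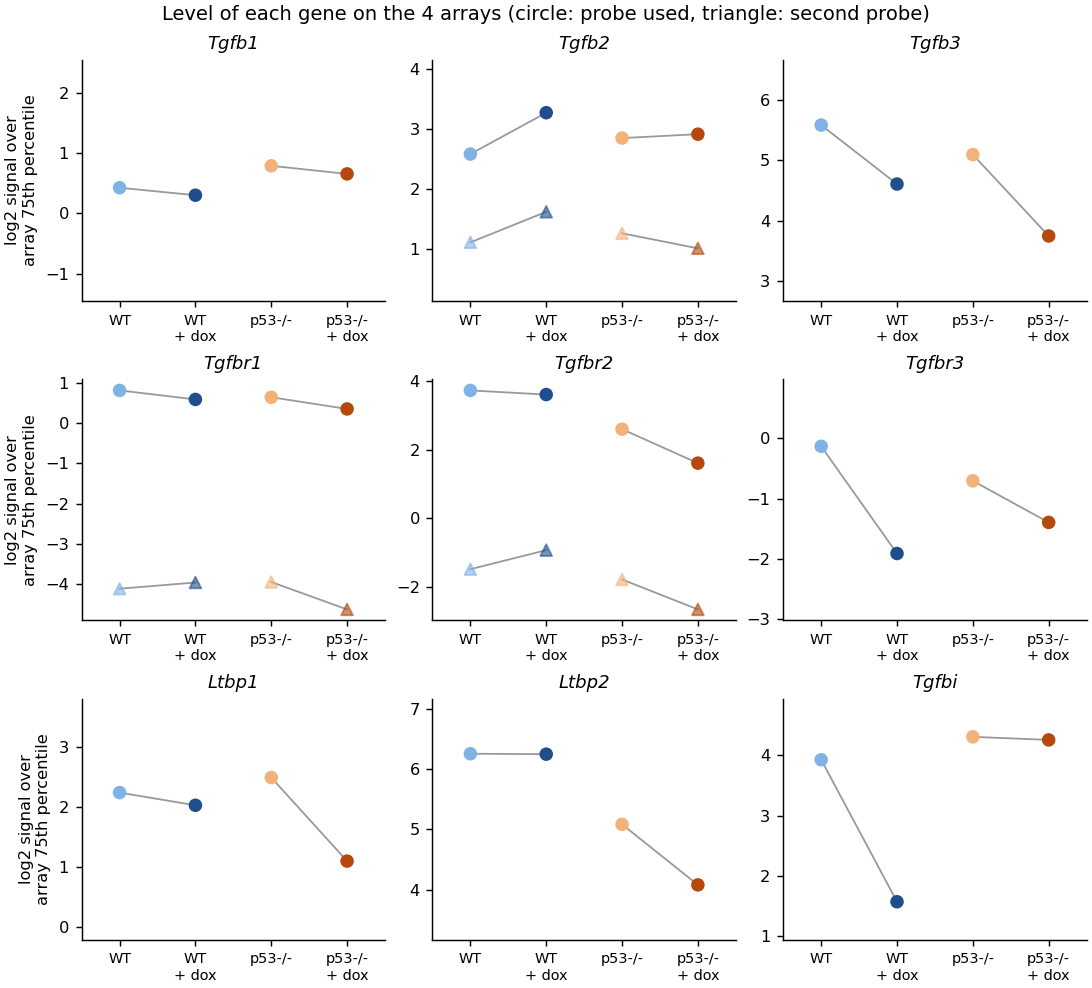
The log2 signal over the array's 75th percentile (y axis) of each of the 9 genes on the 4 arrays (x axis), 1 point per array, with circles for the probe used, triangles for a second probe and lines joining the arrays of a genotype. The y axes span at least 4 log2 units but start at different values, and Tgfbi is low only on the array of doxorubicin-treated WT MEFs, with a log2 ratio of −2.36 to untreated WT MEFs.

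Tgfb1 encodes the ligand that gives the family its name and was the steadiest of the ligands. Its probe is spotted 10 times on each array, and the spots had a mean signal of 2788 ± 64.6 without and 2243 ± 60.8 with doxorubicin in WT MEFs, and 3254 ± 97.8 without and 3818 ± 135 with it in p53-/- MEFs (SD over 10 spots). These signals are not scaled between arrays. After scaling, the log2 ratio of doxorubicin-treated over untreated was −0.12 in WT and −0.13 in p53-/- MEFs. The repeat spots gave each ratio an SE of 0.02, and the difference of the ratios was 0.01 with an SE of 0.03, which cover the spots of a probe alone. The p53-/- arrays were higher than the WT arrays by 0.36 without and 0.35 with doxorubicin, or 1.29-fold and 1.28-fold, so that both p53-/- levels lay above both WT levels.

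Tgfb2 encodes the ligand that depends most on betaglycan. The brighter of its 2 probes had signals of 12413 without and 17513 with doxorubicin in WT MEFs, and of 13528 without and 18212 with the drug in p53-/- MEFs. By the brightest probe of each gene, Tgfb2 was the 1 gene of the 9 above 0 in WT MEFs. Its log2 ratio there was 0.69, or 1.61-fold. In p53-/- MEFs the ratio was 0.06, within the repeat-spot SD. Scaling to the array median in place of the 75th percentile turned it to −0.23, where the median of all genes was −0.30. The second probe (mm9 chr1:188447534-188447593) had signals of 4492, 5596, 4520 and 4895 in the same order and ratios of 0.51 and −0.25. After scaling, both probes placed doxorubicin-treated WT MEFs highest of the 4 arrays, and the ratio in WT MEFs exceeded that in p53-/- MEFs by 0.62 with one probe and 0.76 with the other.

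Tgfb3, the ligand best known from palate and wound repair, was lower with doxorubicin in both genotypes. Over the 10 spots of its probe (mm9 chr12:87397804-87397863) the mean signal was 99761 ± 3322 without and 44371 ± 1447 with doxorubicin in WT MEFs, and 64404 ± 1601 without and 32494 ± 924 with it in p53-/- MEFs (SD). The spots of the 4 arrays did not overlap. The log2 ratio was −0.98 in WT MEFs, or 1.97-fold and just short of the 2-fold limit, and −1.35 in p53-/- MEFs. Untreated p53-/- MEFs stood 0.49 below untreated WT MEFs, and doxorubicin-treated p53-/- MEFs 0.86 below doxorubicin-treated WT MEFs, so the order from high to low was untreated WT, untreated p53-/-, treated WT and treated p53-/-.

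**Figure D2:**
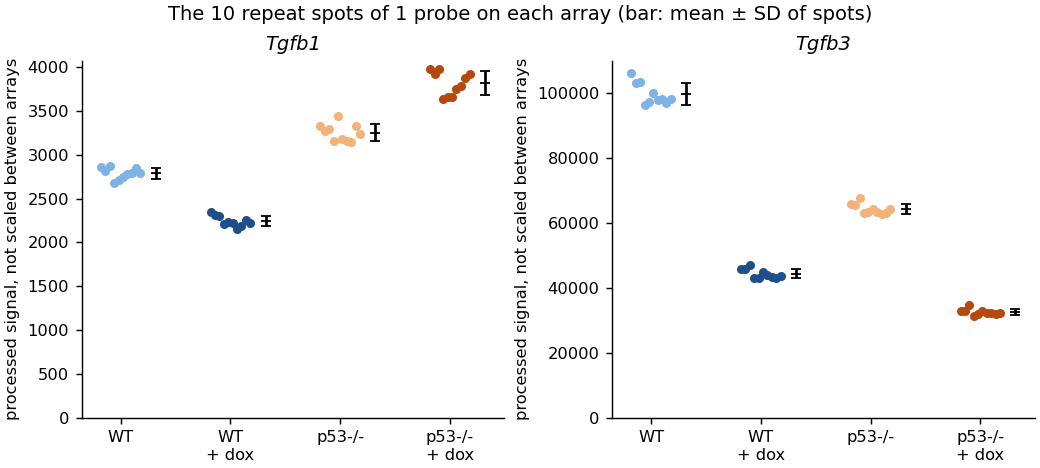
Processed signals, not scaled between arrays (y axis, from 0), of the 10 repeat spots of the Tgfb1 probe (left) and the Tgfb3 probe (right) on the 4 arrays, with the mean and SD of the spots beside the points. The spots of Tgfb3 form 4 separate groups with means from 32494 to 99761. Those of Tgfb1 also form 4 separate groups, within the narrower span from 2152 to 3979.

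Tgfbr1 encodes the type I receptor kinase and differed little between the arrays. The probe used (mm9 chr4:47427736-47427795) had signals of 3632 without and 2728 with doxorubicin in WT MEFs, and of 2930 without and 3083 with the drug in p53-/- MEFs. Its 4 scaled levels spanned 0.46 log2 units, the narrowest range of the 9 genes, and the log2 ratio with doxorubicin was −0.22 in WT and −0.29 in p53-/- MEFs. The middle levels of the order, untreated p53-/- and doxorubicin-treated WT MEFs, were 0.05 apart, within the repeat-spot SD. A second probe had signals of 97.9 to 122, close to the negative controls, and on the array of treated p53-/- MEFs it was not well above background.

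Tgfbr2 encodes the type II receptor, which binds the ligand first. Its brighter probe (mm9 chr9:115997155-115997214) had signals of 27381 without and 22085 with doxorubicin in WT MEFs, against 11351 without and 7357 with the drug in p53-/- MEFs. Both p53-/- arrays lay below both WT arrays. Doxorubicin-treated WT MEFs were 0.12 below untreated WT MEFs in log2 terms, close to the repeat-spot SD, and doxorubicin-treated p53-/- MEFs were 0.99 below untreated p53-/- MEFs, just short of 2-fold. The ratio of p53-/- over WT was −1.13 without doxorubicin and −1.999 with it, or 2.19-fold and 4.00-fold lower.

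The second Tgfbr2 probe, at the end of the coding sequence shown above, lies 2281 bases from the brighter one in the genome. Its signals were 740 and 953 in WT MEFs without and with doxorubicin, and 544 and 383 in p53-/- MEFs. Here, too, doxorubicin-treated p53-/- MEFs were the lowest of the 4 arrays, with a log2 ratio of −1.73 against doxorubicin-treated WT MEFs. With doxorubicin in p53-/- MEFs the probes were close, at −0.87 with the second and −0.99 with the brighter one. They differed in WT MEFs and between the untreated genotypes: the second gave 0.55 in place of −0.12 for doxorubicin in WT MEFs, and −0.30 in place of −1.13 for untreated p53-/- over WT MEFs. The level of Tgfbr2 in untreated p53-/- MEFs was therefore at least 2-fold lower with one probe and not with the other.

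Tgfbr3 encodes the co-receptor betaglycan. Signals of its probe (mm9 chr5:107535818-107535877) were 1892 without and 483 with doxorubicin in WT MEFs, and 1154 without and 920 with the drug in p53-/- MEFs. Doxorubicin-treated WT MEFs were the lowest of the 4, with a log2 ratio of −1.78 in WT MEFs against −0.69 in p53-/- MEFs. The difference of the ratios was −1.09. It turned the order of the genotypes: the log2 ratio of p53-/- over WT was −0.57 without doxorubicin and 0.52 with it.

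Ltbp1 encodes a latent TGF-beta binding protein that anchors the latent complex in the matrix. Its probe (mm9 chr17:75790530-75790589) had signals of 9782 without and 7411 with doxorubicin in WT MEFs, and of 10551 without and 5190 with the drug in p53-/- MEFs. Only the last stood apart, since the other levels spanned less than the gap to it. The log2 ratio was −0.21 in WT and −1.39 in p53-/- MEFs. By the brightest probe of each gene, their difference of 1.18 was the 1 difference among the 9 genes that was at least 1 above 0. The second probe of Tgfbr2 gave a difference of 1.43.

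Ltbp2 encodes a matrix protein of the same family that is found along elastic fibers and is known to bind latent TGF-beta poorly, if at all. The signals of its probe (mm9 chr12:86124167-86124226) were 158492 without and 138314 with doxorubicin in WT MEFs, but 63766 without and 40907 with the drug in p53-/- MEFs. In WT MEFs the scaled levels without and with doxorubicin differed by 0.01, within the repeat-spot SD. In p53-/- MEFs the log2 ratio was −1.005, just past 2-fold and just short of it (−0.99) with quantile normalization, and the difference between the genotypes' ratios was 0.998, just short of it. The log2 ratio of p53-/- over WT was −1.17 without doxorubicin and −2.17 with it, or 2.25-fold and 4.50-fold lower. Of 17286 genes measured between the untreated genotypes, 288 were lower than Ltbp2 and 326 were lower than Tgfbr2.

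Tgfbi encodes a secreted matrix protein named for its induction by TGF-beta. Its probe (mm9 chr13:56740460-56740519) had signals of 31583 without and 5400 with doxorubicin in WT MEFs, and 37277 without and 46325 with it in p53-/- MEFs. The array of doxorubicin-treated WT MEFs stood far below the other arrays. The log2 ratio with doxorubicin was −2.36 in WT MEFs and −0.05 in p53-/- MEFs, a difference of −2.31, and the 2 p53-/- levels were within the repeat-spot SD of each other. With doxorubicin, p53-/- MEFs were 2.69 above WT MEFs, or 6.44-fold, and 305 of 17892 measured genes were higher than Tgfbi in that comparison. Without doxorubicin the same ratio was 0.38.

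Set beside all measured genes, the counts were as follows. With doxorubicin in WT MEFs, 0 of the 9 genes were at least 2-fold higher and 2 (22.2%) at least 2-fold lower, Tgfbi and Tgfbr3, against 11% higher and 10.4% lower of 17513 genes. In p53-/- MEFs, 0 were higher and 3 (33.3%) were lower, Ltbp1, Tgfb3 and Ltbp2, against 9.24% higher and 6.89% lower of 16953 genes. The ratio was below 0 for 8 of the 9 genes in each genotype, with a median of −0.21 in WT and −0.69 in p53-/- MEFs, where the medians of all genes were 0.01 and 0.00. The exception above 0 was Tgfb2 in both. These signs are those of the brightest probe of each gene. The second probes gave ratios above 0 for Tgfbr2 (0.55) and Tgfbr1 (0.15) in WT MEFs, and below 0 for Tgfb2 (−0.25) in p53-/- MEFs. The small ratios of Tgfbr2 and Ltbp2 in WT MEFs and of Tgfb2 in p53-/- MEFs changed sign under some of the other processing settings. No test of the 9 genes against the rest was made.

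Between the untreated genotypes 2 of the 9 genes, Ltbp2 and Tgfbr2, were at least 2-fold lower in p53-/- MEFs and 0 were higher. Of 17286 genes, 2.61% were lower and 2.15% higher. The count of Tgfbr2 there rests on its brighter probe, since the second gave −0.30 and the mean of its probes −0.72. Between the doxorubicin-treated genotypes Ltbp2 and Tgfbr2 were lower and Tgfbi was higher, against 10.3% lower and 11.9% higher of 17892 genes. These comparisons share arrays with those of doxorubicin. For the difference between the genotypes' responses, WT minus p53-/-, Ltbp1 was at least 1 above 0 and Tgfbi and Tgfbr3 at least 1 below 0, against 8.37% above and 9.86% below of 16513 genes. With its second probe Tgfbr2 was also at least 1 above 0, at 1.43. Values close to the limit were those of Tgfb3 in WT MEFs (−0.98), Tgfbr2 in p53-/- MEFs (−0.99), and Ltbp2 in p53-/- MEFs and in the difference.

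**Figure D3:**
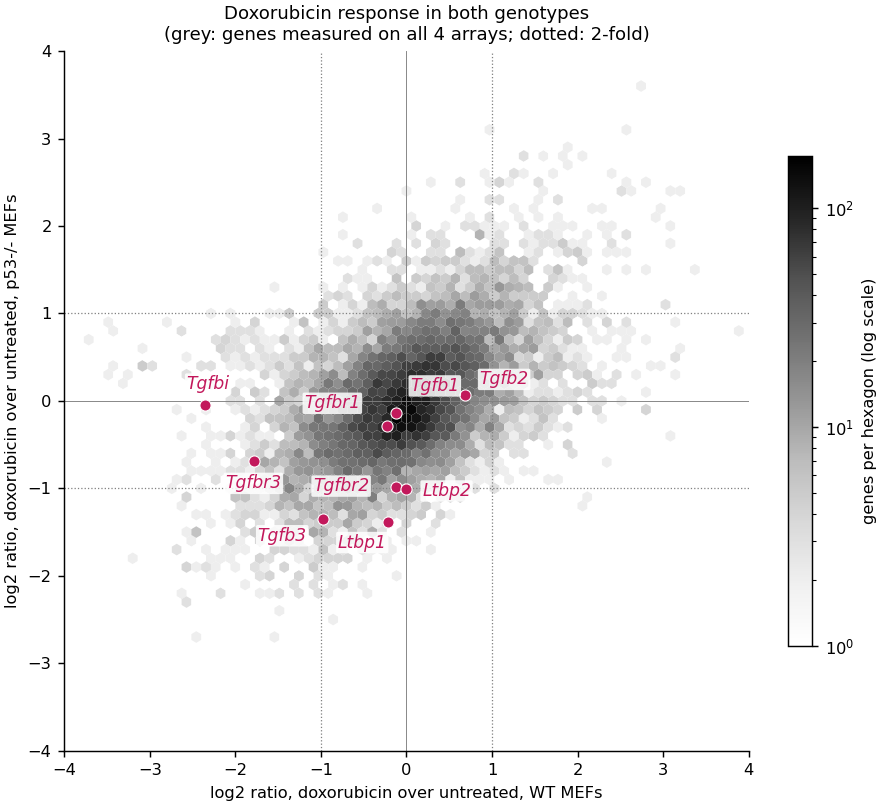
The log2 ratio of doxorubicin-treated over untreated WT MEFs (x axis) and p53-/- MEFs (y axis) for the 9 genes (colored points) and for all genes measured on the 4 arrays (grey hexagons, darker for more genes; genes beyond 4 log2 units are not drawn), with dotted lines at 2-fold. Tgfbi and Tgfbr3 lie left of the 2-fold line for WT MEFs, while Ltbp1, Tgfb3 and Ltbp2 lie below the line for p53-/- MEFs and Tgfbr2 on it at −0.99.

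The profile over the 4 arrays was then compared between genes for the 3 members with the widest range, as the Euclidean distance between log2 levels centred on each gene's mean. Tgfbr2 and Ltbp2 were each other's nearest neighbor among 16512 other genes, at a distance of 0.13. Their log2 levels differed by an almost constant amount, with an SD of 0.08 over the 4 arrays. The next genes for Tgfbr2 were Lrrc15, a membrane protein of activated fibroblasts, at 0.23 and Adamts2, a procollagen protease, at 0.25. For Ltbp2 they were Lrrc15 at 0.28 and the long noncoding RNA Pvt1 at 0.34. This likeness belongs to the brighter Tgfbr2 probe, and the second probe had other ratios, given above.

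Of the other members Tgfbr3 was the closest to Tgfbi, at a distance of 1.68. The genes most like it were Idh2, the mitochondrial isocitrate dehydrogenase, at 0.13, Fndc4 at 0.15 and Ankrd34a at 0.16. Idh2 had signals of 44346 without and 7657 with doxorubicin in WT MEFs, and of 47525 without and 60547 with the drug in p53-/- MEFs. Its log2 ratio was −2.34 in WT MEFs and −0.01 in p53-/- MEFs, next to −2.36 and −0.05 for Tgfbi. A distance over 4 arrays describes these arrays, and many genes can share a profile with so few points.

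**Figure D4:**
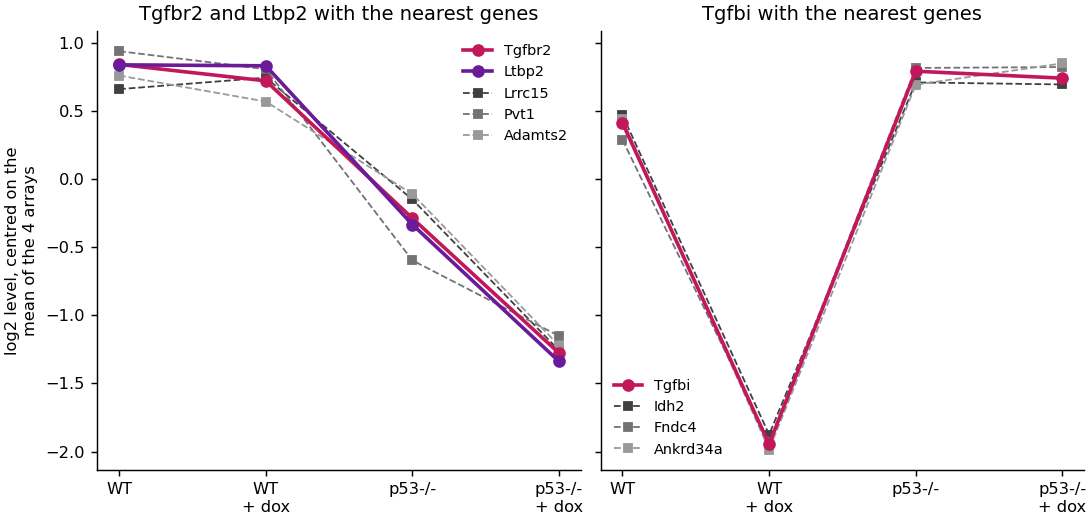
The log2 level centred on each gene's mean over the 4 arrays (y axis) on the 4 arrays (x axis), for Tgfbr2 and Ltbp2 (left) and Tgfbi (right), solid, with their nearest other genes, dashed. Tgfbr2 and Ltbp2 nearly coincide at a distance of 0.13, and Tgfbi and Idh2 at 0.13 as well.

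Beyond the 9 genes, 58 genes of the pathway in 5 lists were looked at, of which 55 were measured on all arrays. With doxorubicin in WT MEFs, 5 (9.09%) were at least 2-fold higher and 11 (20%) lower, against 11% higher and 10.4% lower of all measured genes. For p53-/- MEFs the counts were 5 (9.09%) higher and 12 (21.8%) lower, against 9.24% and 6.89%. The lists are described by their counts and medians, with up to 3 genes of each that had the largest ratio in either genotype.

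In the list of latency and activation genes, those that passed 2-fold with doxorubicin were all lower, in both genotypes. Of 11 genes 9 were measured, the integrin subunits Itgb6 and Itgb8 falling short. In WT MEFs 0 were at least 2-fold higher and 3 (33.3%, against 10.4% of all genes) lower, with a median of −0.67. Among the p53-/- ratios 0 were higher and 5 (55.6%, against 6.89%) lower, with a median of −1.29. Fbn2, a fibrillin of the microfibrils to which latent complexes attach, had signals of 36786 and 2818 in WT MEFs without and with doxorubicin and of 25105 and 7011 in p53-/- MEFs, with log2 ratios of −3.52 and −2.20. Lrrc32, which tethers latent TGF-beta to the cell surface, had ratios of −2.64 and −1.40. For Emilin1, an elastic fiber glycoprotein that restrains the processing of pro-TGF-beta, they were −0.67 and −1.53.

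Co-receptors and proteins that sequester the ligand were mixed. Of 8 genes 7 were measured, the decoy receptor Bambi falling short, and in WT MEFs 1 (14.3%, against 11% of all genes) was at least 2-fold higher and 2 (28.6%, against 10.4%) lower, with a median of −0.31. Of the 7, in p53-/- MEFs 1 (14.3%, against 9.24%) was higher and 0 were lower (against 6.89%), with a median of −0.61. Eng, or endoglin, a co-receptor related to betaglycan, had signals of 1972 and 3936 in WT MEFs without and with doxorubicin and of 876 and 626 in p53-/- MEFs. It was 1.19 higher with doxorubicin in WT MEFs and had a ratio of −0.85 in p53-/- MEFs, and with doxorubicin its log2 ratio of p53-/- over WT was −3.07. Eng and Tgfbr3 thus stood on opposite sides of 0 in WT MEFs. Dcn, the matrix proteoglycan decorin, which binds TGF-beta, had a ratio of −1.30 in WT MEFs and 0.30 in p53-/- MEFs. Cd109, a co-receptor that dampens signaling, had ratios of 0.85 and 1.18.

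All 11 SMAD pathway genes were measured. In WT MEFs 1 (9.09%, against 11% of all genes) was at least 2-fold higher and 0 lower (against 10.4%), with a median of 0.13. In p53-/- MEFs 0 were higher (against 9.24%) and 2 (18.2%, against 6.89%) lower, with a median of −0.24. Scaling to the array median turned the WT median to −0.14, where that of all genes was −0.27. Ski, a SMAD corepressor, had signals of 566 and 1009 in WT MEFs without and with doxorubicin and of 752 and 483 in p53-/- MEFs, with ratios of 1.02 and −1.003. Zfyve9, which brings SMADs to the receptor, had ratios of −0.21 and −1.67, and Smurf2, a ubiquitin ligase for SMADs and receptors, of 0.15 and −0.70.

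The 15 genes listed as TGF-beta responses had a median of −0.39 in WT and −0.45 in p53-/- MEFs. In WT MEFs 0 were at least 2-fold higher (against 11% of all genes) and 3 (20%, against 10.4%) lower. With the drug in p53-/- MEFs, 2 (13.3%, against 9.24%) were higher and 3 (20%, against 6.89%) lower. Cnn1, the contractile protein calponin, had signals of 78849 and 24063 in WT MEFs without and with doxorubicin and of 101441 and 37067 in p53-/- MEFs, with ratios of −1.52 and −1.82. Tgfb1i1, a focal adhesion protein also called Hic-5, had ratios of −0.67 and −1.75. For Pmepa1, a feedback inhibitor of SMAD signaling, they were −0.24 and −1.71. Many of these genes also answer to other signals.

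The activin and bone morphogenetic protein (BMP) branch held the largest increases of the 5 lists. Of 13 genes 3 (23.1%) were at least 2-fold higher and 3 (23.1%) lower in WT MEFs, where 11% and 10.4% of all genes were. The p53-/- counts were 2 (15.4%) higher and 2 (15.4%) lower, where 9.24% and 6.89% of all genes were. Bmp2, a BMP ligand, had signals of 244 and 1101 in WT MEFs without and with doxorubicin and of 463 and 2294 in p53-/- MEFs, with log2 ratios of 2.36 and 1.94. Fst, the activin antagonist follistatin, had ratios of 1.82 and 1.53. Gdf15, a stress-induced ligand of the family and a known p53 target, had ratios of 1.28 and 0.64, and without doxorubicin its ratio of p53-/- over WT was −2.09. The median of the branch was 0.25 in WT and −0.51 in p53-/- MEFs. Scaling to the array median turned the WT median to −0.02, where that of all genes was −0.27.

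**Figure D5:**
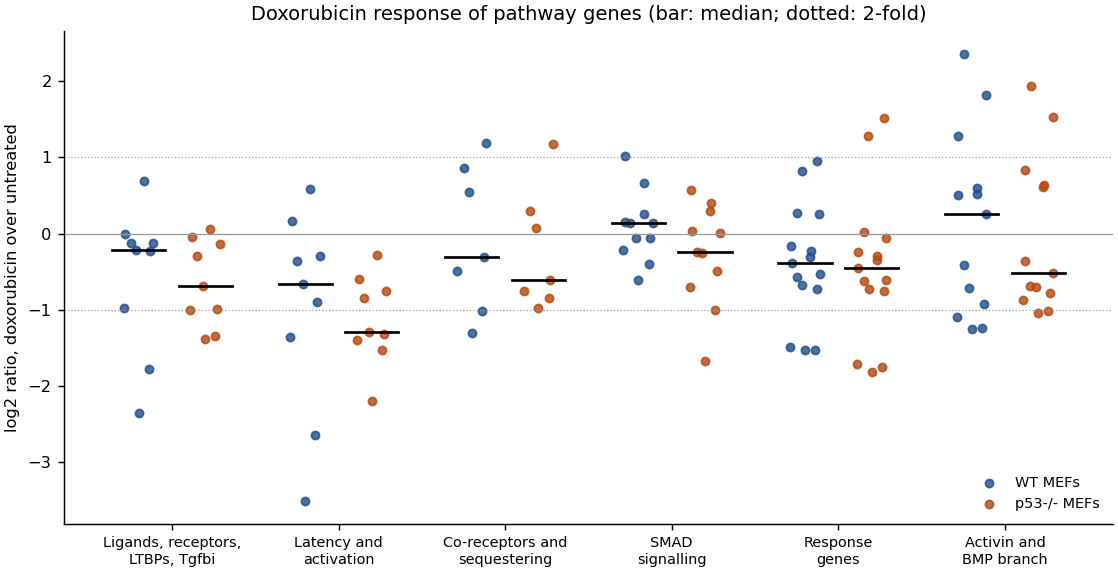
The log2 ratio of doxorubicin-treated over untreated MEFs (y axis) for the 9 genes and the 5 lists of pathway genes (x axis), 1 point per measured gene, WT in blue and p53-/- in orange, with a black bar at the median and dotted lines at 2-fold. The latency and activation list has the lowest medians, −0.67 in WT and −1.29 in p53-/- MEFs, and the highest points are those of Bmp2 in the activin and BMP branch.

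The labels name the cells as fibroblasts, and all 8 fibroblast markers were well above background on every array, with summed signals of 1017260 to 1409870. With doxorubicin 0 of the 8 were at least 2-fold higher in either genotype, against 11% of all genes in WT and 9.24% in p53-/- MEFs. In WT MEFs 2 (25%, against 10.4%) were at least 2-fold lower, with a median of −0.61. In p53-/- MEFs 1 (12.5%, against 6.89%) was lower, with a median of −0.18. Pdgfra had signals of 2728 and 233 in WT MEFs without and with doxorubicin (log2 ratio −3.36) and a ratio of −0.89 in p53-/- MEFs, and Pdgfrb had ratios of −2.44 in WT MEFs and −1.73 in p53-/- MEFs. The other 6 lay between −0.90 (S100a4) and 0.26 (Col1a1) in WT MEFs, and between −0.80 (Col1a2) and 0.98 (S100a4) in p53-/- MEFs. Of 6 epithelial markers 2 to 4 were well above background, with summed signals of 1772 to 3195, and Krt5 had a signal of 951 on the array of doxorubicin-treated WT MEFs against 50.5 to 90.9 on the others. Of 4 endothelial markers 2 or 3 were well above background, with summed signals of 5493 to 7647, mostly from Kdr. Of 6 leukocyte markers 3 to 5 were, with summed signals of 27596 to 33104, mostly from Itgam. Among these 6, Cd68 had a signal of 211 on the array of doxorubicin-treated WT MEFs against 41.9 to 53.2 on the others. Lyz2 had signals of 253 and 150 in WT MEFs without and with doxorubicin and of 103 and 36.9 in p53-/- MEFs. Those well above background on all 4 arrays were Krt8 (signals of 1052 to 2338), Krt14 (179 to 822), Pecam1 (118 to 207), Kdr, Itgam, Cd3e (701 to 998) and Ptprc (65.3 to 104). Ptprc was nevertheless below the brightest negative control on every array. Krt14 and Pecam1 were below it on the array of untreated p53-/- MEFs. Epcam, Cldn4, Cdh5 and Cd79a were not well above background on any array. The part of other cells in the ratios above was not tested, and in a bulk sample fewer cells of a type and less RNA per cell cannot be told apart.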

How the data were processed

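For each sample the authors labeled RNA (200 ng) with Cy3, hybridized it to Agilent 4x44K v2 mouse arrays and read these with Feature Extraction 10.7.3.1. That program subtracted the background from the deposited intensity of a spot and removed trends within the array, and arrays were not normalized against each other. A table of intensities for all arrays, also deposited, was equal to it in all 44397 rows within a relative tolerance of 0.0001. The deposited flags, coded 0 or 1, mark spots well above background, saturated spots (0 here) and outliers (145 to 168 spots per array, left out). The number of arrays limits the precision.

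Log2 intensities were averaged over the spots of a probe and set to the array's 75th percentile over non-control probes. The probe with the highest mean of the 4 arrays stood for a gene. Genes were named through a RefSeq table of GRCm38.p6, 26055 probes by accession, 3195 by symbol and 939 by synonym, and 9240 kept the name in the file. Named genes were the 9 members, at most 3 genes per pathway list with the largest ratio, the 3 genes nearest in profile to each of 3 members, Trp53, Mdm2 and the cell type markers. Itgb6, Itgb8 and Bambi, which were not measured, were named after their values were seen. The members, lists and alternatives were chosen with earlier results of these data known.

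Alternatives were other scalings (array median, quantile), normexp background correction (offset 50), other filters on dim probes, the mean over probes, the table of all arrays, limits of 1.5-fold and 3-fold and, chosen after seeing the data, the second probe of 3 genes. The steps were run on simulated data with planted changes of 2 and 3 log2 units and noise of the repeat-spot SD, and all planted changes were called. Changes of that size lie well past the 2-fold limit. The run therefore does not bear on values near that limit or on variation between cultures. Calculations used Python 3.11.15 (pandas 2.3.3, numpy 2.4.6), figures matplotlib 3.10.9, and normexp limma 3.58.1 in R 4.3.3, with no test. Fold changes that the authors calculated with other software were not used here.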

Additional observations from a re-analysis of the deposited data

Results flagged for a closer look

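For 2 of the 55 measured pathway genes doxorubicin went with opposite directions in the genotypes, each by at least 1.5-fold. The share of all measured genes that did so was not counted. The difference between the genotypes was not tested, since there was 1 array for each condition. The log2 ratio of Eng was 1.19 in WT and −0.85 in p53-/- MEFs, a difference of 2.04. That of Ski was 1.02 in WT and −1.003 in p53-/- MEFs, a difference of 2.03. None of the 9 ligand, receptor, latent binding protein and Tgfbi genes differed in this way by at least 1.5-fold in each genotype. The second probe of Tgfbr2 did have opposite directions, at 0.55 in WT MEFs, or 1.47-fold, and −0.87 in p53-/- MEFs. That of Tgfb2 did as well, at 0.51 and −0.25.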

How the results depend on the processing

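None of the 9 genes' called ratios changed sign under the alternatives run. Of 402 recomputed ratios, 240 were equal to the reported ones, since the filters, the table of all arrays and genes with 1 probe left them as they were, and of the other 162 ratios 117 moved by less than the repeat-spot SD and 45 by more. Near 2-fold the genes called changed: with array median scaling Tgfb3 in WT (−1.26) and Tgfbr2 in p53-/- MEFs (−1.29) passed, and with quantile normalization Tgfbr2 (−1.03) passed and Ltbp2 (−0.99) did not in p53-/- MEFs. Small ratios did change sign: Tgfbr2 in WT MEFs to 0.22 and Tgfb2 in p53-/- MEFs below 0 with the mean of a gene's probes, Tgfb2 in p53-/- MEFs to −0.23 with array median scaling, Ltbp2 in WT MEFs to 0.02 with quantile normalization, and the Tgfbr1 difference to −0.01 with normexp, and some ratios of Tgfb2, Tgfbr1 and Tgfbr2 that were under 2-fold also did so with the second probes. Array median scaling moved the median doxorubicin ratio over all genes to −0.27 for WT and to −0.30 for p53-/- MEFs, and the share of higher among all genes at least 2-fold apart from 51.4% to 32.1% and from 57.3% to 31.3%. Of 110 recounts of the 9 genes, 95 stayed within 1.5 times the reported count. The filters on dim probes and the table of all arrays could not change a count. The probes used were well above background and above the brightest negative control on every array, and the table held the same intensities. With a limit of 1.5-fold, 1 gene was higher with doxorubicin in WT MEFs and 5 were lower with doxorubicin in p53-/- MEFs. At that limit 4 were lower in treated p53-/- than treated WT MEFs and 4 had a higher ratio in WT than in p53-/- MEFs. Over all genes at 1.5-fold, these counts were 3609 of 17513, 2687 of 16953, 3521 of 17892 and 3035 of 16513, in the same order. With 3-fold the count was 0 for lower with doxorubicin in p53-/- MEFs and 0 for lower in untreated p53-/- than WT MEFs. It was 0 for a ratio higher in WT and 1 for a ratio lower in WT. Over all genes at 3-fold, the counts were 381 of 16953, 123 of 17286, 523 of 16513 and 726 of 16513, in that order. Genes lower in untreated p53-/- than WT MEFs numbered 1 with the mean of probes and 1 with the second probes, since Tgfbr2 (−0.72 and −0.30) then missed the limit. Genes with a ratio higher in WT numbered 2 with array median scaling and with quantile normalization, where Ltbp2 passed (1.02 and 1.01), and 2 with the mean of probes and with the second probes, where Tgfbr2 did (1.15 and 1.43). Genes with a ratio lower in WT numbered 1 with normexp, where Tgfbr3 fell short (−0.98). A block for the slide could not be fitted with 1 slide. No paired analysis was possible because each condition had 1 array.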

Other observations

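A probe of a predicted gene that the array annotates as similar to betaglycan, on chromosome 8 of mm9 (4251364-4251421), lay outside the rule for Tgfbr3. Its signals were 15881 without and 15395 with doxorubicin in WT MEFs, and 17737 without and 18463 with the drug in p53-/- MEFs. Its log2 ratio was 0.14 in WT MEFs and −0.31 in p53-/- MEFs, where the Tgfbr3 probe gave −1.78 and −0.69. A probe of an Ensembl transcript of LTBP-1 had signals of 40.2, 86.5, 49.0 and 111 in the same order and was not well above background on the untreated arrays.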
